A study of Mus musculus with 10 samples.

Results

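Matrix metalloproteinases (MMPs) and ADAMTS proteases are zinc enzymes that cut the extracellular matrix, and tissue inhibitors of metalloproteinases (TIMPs) hold them in check. The members were taken by symbol alone, as every gene named *Mmp*, *Adamts* or *Timp* followed by its number, and 43 of the 26888 genes in the table met that rule: 20 MMP, 19 ADAMTS and 4 TIMP genes. MMPs are made as inactive proenzymes in which a cysteine of the propeptide blocks the active-site zinc, and they become active once the propeptide is removed by furin, plasmin or another MMP. ADAMTS proteases carry thrombospondin type 1 repeats that tether them to the matrix, and their substrates include versican, procollagens, cartilage oligomeric matrix protein and von Willebrand factor. TIMPs fill the active site of MMPs, and TIMP3, which stays bound to the matrix, also inhibits several ADAMTS enzymes. In stromal cells of bone and marrow these enzymes are known for turnover of collagen and for release of growth factors and membrane-bound cytokines.

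RNA-seq was performed on OP9 cells, a stromal line from the calvaria of (C57BL/6xC3H)F2-op/op mice, which lack M-CSF, as 6 reaggregates and 4 flat cultures. Steps described for reaggregates alone were trypsin, centrifugation, filter culture at a liquid-gas interface (48 h, nitrocellulose of 0.8 µm) and, ahead of RNA extraction, a collagenase/dispase digest. Reaggregates 2, 4 and 6 received IL-3 at a stated dose of 200 µg/µl, and reaggregates 1, 3 and 5 did not. Flat cultures were submersed in medium, the labels name the de Bruijn group as the source of cells for numbers 2 and 4, the methods name the Medvinsky group as the other source, and no group was labelled for flat cultures 1 and 3 or for the reaggregates. All libraries come from 1 cell line and nothing in the labels says that the cultures were independent, so that p-values here measure the spread between these libraries, which may be technical. The effects of the steps that set reaggregates apart cannot be told apart from each other.

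Expression was given as RPM, the reads of a gene per M reads on all genes (M, 1e6). Depth lay between 7.35 and 9.43 M reads on genes, and 3 reads, taken as the floor of detection for each library, corresponded to between 0.318 and 0.408 RPM, which covers counting error only. Of the 43 members, 31 reached 0.5 RPM in at least 1 of the 10 libraries and entered the test. A gene was called changed at a fold change of at least 2 on the log2(RPM + 0.5) scale, which understates the change of low genes, and if its p-value from limma, adjusted by Benjamini-Hochberg over all 16935 genes tested, was no higher than 0.05.

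The libraries expressed the stromal genes of the cell line. Of 8 OP9 stromal markers, 7 were tested and 4 were higher in reaggregates, namely *Pdgfra*, *Pdgfrb*, *Col1a1* and *Vcam1* (with consecutive reaggregates averaged, *Pdgfra* and *Pdgfrb*), and *Thy1* was at or below 3 reads in every library. The leukocyte gene *Ptprc* and the macrophage gene *Emr1* were listed at 0 in every library, while *Lyz2* at 6.92 to 48.5 RPM and *Cd68* at 1.61 to 8.23 RPM, from the same list, were detected in every library. Of 3 neutrophil genes and 5 epithelial genes none exceeded 3 reads in any library. Of 5 endothelial markers only *Pecam1* was tested and it was not called, while *Cdh5*, *Kdr* and *Tie1* never exceeded 3 reads. The osteoclast genes *Acp5* and *Calcr* also stayed at or below 3 reads in every library, and *Itgb3*, which stromal cells express as well, was the only osteoclast marker tested and was not called. A difference in RPM between bulk cultures can come from fewer cells of a type or from less RNA per cell, which cannot be told apart here.

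In reaggregates 13 of the 31 members tested were up-regulated, where 7.32% of all genes tested were. Down-regulated were 4 of the 31, where 6.53% of all genes tested were. The increases comprised 5 MMPs (*Mmp2*, *Mmp9*, *Mmp11*, *Mmp13* and *Mmp14*), 7 ADAMTS genes (*Adamts1*, *Adamts2*, *Adamts4*, *Adamts7*, *Adamts10*, *Adamts12* and *Adamts15*) and *Timp2*. The decreases were *Timp1*, *Adamts5*, *Adamts6* and *Mmp23*. None of the 9 ADAMTS calls remained when consecutively numbered reaggregates, which gave close values, were averaged. The calls of *Timp2* and *Mmp23* were lost as well. Reaggregate and flat values did not overlap at all for 13 members, which were 10 of those up-regulated and 3 of those down-regulated, and 19.1% of all genes tested were without overlap. The median log2 fold change of the 31 members tested was 0.89, and that of all genes tested was 0.04. A member that entered the test only through the group in which it was high had to differ, so that this median is a description.

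**Figure D1:**
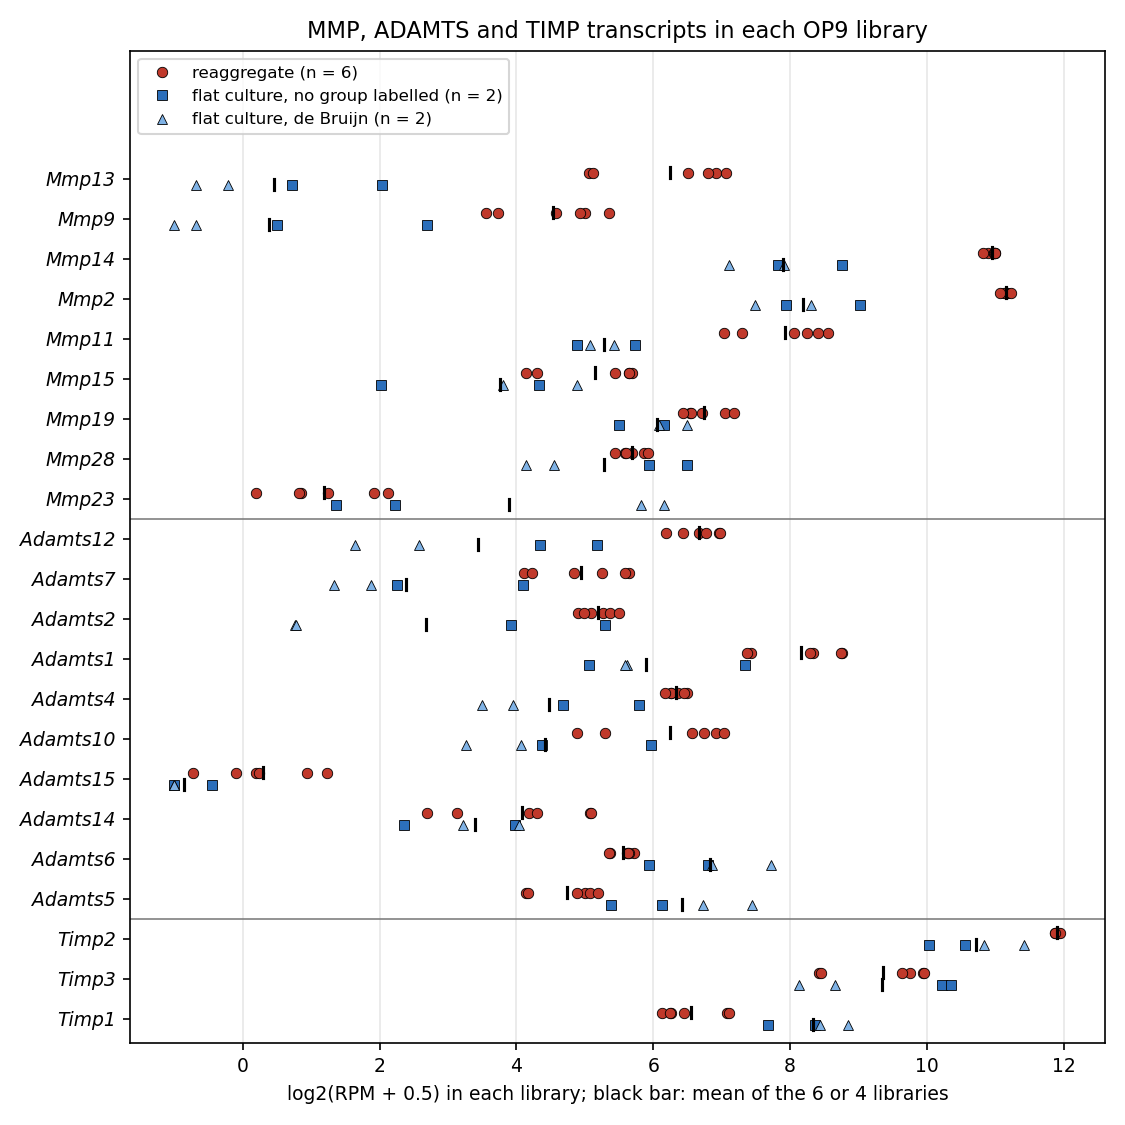
Expression of 22 members in each OP9 library, as log2(RPM + 0.5) on the horizontal axis; circles are reaggregates, squares flat cultures with no group labelled, triangles de Bruijn flat cultures, and black bars the group means. *Mmp2* and *Mmp14* lie in tight clusters in reaggregates and well to the right of all 4 flat cultures, in reaggregates *Timp1*, *Adamts5* and *Adamts6* lie to the left of all flat cultures, and *Mmp23* is high only in the de Bruijn flat cultures.

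The gelatinase *Mmp2* and the membrane-type protease *Mmp14*, which activates proMMP2 on the cell surface with TIMP2 as the bridge between them, had the highest mean RPM among the member proteases in both groups. In flat culture 4 alone, *Adamts6* at 210 RPM was above both. *Mmp2* (ENSMUSG00000031740, chr8:95351227-95377316 on NCBI37) ranged from 2150 to 2390 RPM in reaggregates with a median of 2300 RPM, and measured 244, 317, 518 and 179 RPM in the flat cultures 1 to 4. Every reaggregate exceeded every flat culture, and the reaggregates differed little among themselves while flat culture 3 stood above the other flat cultures. The mean was 2280 ± 81.7 RPM (SD, n = 6) against 314 ± 147 RPM (SD, n = 4), and *Mmp2* was up-regulated with a ratio of means of 7.25 and a log2 fold change of 2.97 (SE 0.249 and adjusted p = 5.79e-05, limma).

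*Mmp14* (ENSMUSG00000000957, chr14:55050441-55060095) moved with it, at 1810 to 2050 RPM in reaggregates with a median of 2015 RPM, against 225, 241, 431 and 137 RPM in the flat cultures. The groups were far apart, with flat culture 3 again the highest and flat culture 4 the lowest of the flat cultures. *Mmp14* rose by a log2 fold change of 3.05 (SE 0.256 and adjusted p = 5.79e-05, limma). *Timp2* (ENSMUSG00000017466, chr11:118162383-118217054), the third part of this activation complex, lay between 3730 and 3960 RPM in reaggregates with a median of 3835 RPM, and at 1040, 2750, 1510 and 1830 RPM in the flat cultures. All reaggregates were above all flat cultures, but here flat culture 2 came closest to them and flat culture 1 was the lowest. *Timp2* rose by a log2 fold change of 1.19 (SE 0.254 and adjusted p = 0.00643, limma). Without flat culture 1 the fold change was 0.96, below the threshold for a call, and against the de Bruijn flat cultures alone it was 0.77. With consecutive reaggregates averaged it stayed at 1.19 but was not called (adjusted p = 0.0950, limma).

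Among secreted collagenases, gelatinases and stromelysins, *Mmp13* changed most. This interstitial collagenase cleaves fibrillar collagen and is made by osteoblasts and hypertrophic chondrocytes. *Mmp13* (ENSMUSG00000050578, chr9:7272514-7283333) measured 120, 133, 111, 90.9, 32.8 and 34.2 RPM in reaggregates 1 to 6, against 1.15, 0.358, 3.59 and 0.121 RPM in the flat cultures 1 to 4. Reaggregates 5 and 6 were lower than the other reaggregates, yet all reaggregates were well above flat culture 3, the highest of the flat cultures, and flat culture 4 held no more than the floor of 3 reads. The mean was 87.0 ± 43.6 RPM (SD, n = 6) against 1.30 ± 1.59 RPM (SD, n = 4), and its log2 fold change was 5.78 (SE 0.567 and adjusted p = 0.000104, limma), the largest of any member tested.

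*Mmp9*, the gelatinase also known from osteoclasts and neutrophils, was low in flat cultures and higher in reaggregates. It measured 23.5, 31.7, 40.4, 30.0, 12.8 and 11.3 RPM in reaggregates 1 to 6, against 0.921, 0, 5.99 and 0.121 RPM in the flat cultures 1 to 4. The groups did not overlap, the 2 de Bruijn flat cultures were at or below 3 reads, and flat culture 3 was the highest of the flat cultures. *Mmp9* rose by a log2 fold change of 4.15 (SE 0.649 and adjusted p = 0.00129, limma). The osteoclast genes *Acp5* and *Calcr* and the neutrophil genes *Elane*, *Mpo* and *S100a8* did not exceed 3 reads in any of these libraries. *Itgb3*, the other osteoclast gene analysed, was at 104 to 114 RPM in reaggregates and at 39.1 to 111 RPM in flat cultures. Which cells held the *Mmp9* transcripts was not tested.

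*Mmp11*, or stromelysin 3, is unusual among secreted MMPs in that furin activates it before it leaves the cell. It ranged from 131 to 374 RPM in reaggregates with a median of 284 RPM, against 28.9, 42.4, 52.7 and 33.3 RPM in the flat cultures. The flat cultures lay close together, all reaggregates were higher, and reaggregates 5 and 6 were the lowest of these at 156 and 131 RPM. *Mmp11* rose by a log2 fold change of 2.65 (SE 0.307 and adjusted p = 0.000247, limma). An exact permutation test over the 210 ways to assign 6 and 4 libraries gave p = 0.00476, the smallest two-sided value it can give, for *Mmp2*, *Mmp9*, *Mmp11*, *Mmp13* and *Mmp14* alike. That test takes the 6 reaggregates as independent. With consecutive reaggregates averaged, the 35 assignments of 3 and 4 gave an exact p of 0.0286, again the smallest possible, for *Mmp2*, *Mmp11*, *Mmp13* and *Mmp14*, and of 0.0571 for *Mmp9*.

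The remaining expressed MMPs were not called higher against all flat cultures. *Mmp15*, a second membrane-type MMP, measured 49.5, 51.1, 17.1, 19.2, 49.5 and 43.0 RPM in reaggregates 1 to 6, against 3.57, 29.0, 19.6 and 13.5 RPM in the flat cultures. Reaggregates 3 and 4 were lower than the other reaggregates and fell within the range of flat cultures, so that the groups overlapped. The log2 fold change of 1.38 (SE 0.522) missed the threshold with a limma adjusted p of 0.0652. It passed when flat culture 2 or flat culture 3 was left out, at 1.76 or 1.57.

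*Mmp19*, which cleaves basement membrane proteins, had 85.7 to 144 RPM in reaggregates with a median of 98.7 RPM and 44.7, 89.6, 70.7 and 67.6 RPM in the flat cultures. Only flat culture 2 reached the range of reaggregates, and the log2 fold change of 0.68 (SE 0.212 and adjusted p = 0.0322, limma) was below the threshold of fold change. Exons of *Mmp19* share 789 bases with the opposite strand of 1110012D08Rik, at 38.6 RPM in reaggregates and 31.8 RPM in the flat cultures, and since no use of strand in the counting was stated, reads of such pairs cannot be told apart. *Mmp28*, or epilysin, had 42.8 to 60.3 RPM in reaggregates with a median of 49.6 RPM, and 60.6, 22.9, 89.8 and 17.2 RPM in the flat cultures. The 2 flat cultures without a labelled group were above all reaggregates, the 2 de Bruijn cultures were below all reaggregates, and the combined log2 fold change was 0.40 (SE 0.388 and adjusted p = 0.440, limma). *Mmp28* shares 465 exonic bases with 1700020L24Rik on the opposite strand, which was at 8.65 RPM in reaggregates and 6.68 RPM in the flat cultures.

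*Mmp23* is a membrane-anchored MMP that lacks the hemopexin domain. It was at 3.85, 3.27, 1.86, 0.645, 1.30 and 1.27 RPM in reaggregates 1 to 6, against at 2.07, 55.8, 4.19 and 70.8 RPM in the flat cultures. The de Bruijn flat cultures alone were high, and flat culture 1 lay inside the range of reaggregates. The fall, by a log2 fold change of −2.70 (SE 0.875 and adjusted p = 0.0382, limma), rested on those cultures. Leaving out flat culture 2 gave −2.06 and leaving out flat culture 4 gave −1.95, neither of them called, and against flat cultures 1 and 3 alone the fold change was −0.61. Leaving out any single reaggregate also ended the call, and the adjusted p over all 10 cases of a library left out lay between 0.0114 and 0.130. The adipocyte markers *Fabp4* and *Pparg* were also high in the de Bruijn flat cultures. Of 6 such markers 5 were tested, these 2 were lower in reaggregates (neither of them with consecutive reaggregates averaged), none was higher, and *Lpl* was the most abundant. The summed RPM of that list was 314, 313, 592, 650, 225 and 243 in reaggregates 1 to 6 and 335, 1196.8, 464 and 1338.3 in flat cultures 1 to 4, while *Cfd* did not exceed 3 reads in any library and *Adipoq* stayed below 1 RPM. Their part in the level of *Mmp23* was not tested.

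Of the ADAMTS proteases that cut the large proteoglycans versican and aggrecan, *Adamts1* and *Adamts4* rose while *Adamts5* fell, calls that were lost when consecutive reaggregates were averaged. *Adamts1* measured 321, 312, 172, 165, 432 and 428 RPM in reaggregates 1 to 6, against 32.7, 48.4, 161 and 47.4 RPM in the flat cultures. Flat culture 3 came close to reaggregates 3 and 4, the lowest of the reaggregates, and the other flat cultures were far below. The mean was 305 ± 117 RPM (SD, n = 6) against 72.4 ± 59.5 RPM (SD, n = 4), and *Adamts1* was up-regulated with a log2 fold change of 2.26 (SE 0.429 and adjusted p = 0.00373, limma).

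*Adamts4* was tighter, with 71.4 to 89.4 RPM in reaggregates, a median of 79.0 RPM, and 25.2, 15.0, 54.7 and 10.8 RPM in the flat cultures. The groups did not overlap, flat culture 3 was the highest of the flat cultures, and the log2 fold change was 1.85 (SE 0.348 and adjusted p = 0.00354, limma). *Adamts5*, the major aggrecanase of mouse cartilage, went the other way, at 31.6, 29.1, 17.2, 17.4, 33.3 and 36.1 RPM in reaggregates 1 to 6, against at 41.3, 173, 69.1 and 105 RPM in the flat cultures. All flat cultures were above all reaggregates, the de Bruijn cultures the furthest. *Adamts5* fell by a log2 fold change of −1.67 (SE 0.364 and adjusted p = 0.00710, limma). Against flat cultures 1 and 3 alone the fold change of −1.01 was not called, and against the de Bruijn cultures it was −2.33.

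Among the other members of this group, *Adamts15* was detected at a few reads. It measured 0.641, 0.681, 1.85, 1.41, 0.434 and 0.106 RPM in reaggregates 1 to 6, 0.230 RPM in flat culture 1, and 0 in flat cultures 2, 3 and 4. All flat cultures and reaggregate 6 were at or below 3 reads, so that the groups overlapped. It entered the test only through reaggregates and had to differ, so that its call is a description. The call, at a log2 fold change of 1.16 (SE 0.346 and adjusted p = 0.0278, limma), ended when flat culture 2 or 4 or reaggregate 3 or 4 was left out, at 0.97 to 1.11, and with a pseudocount of 1, at 0.74. *Adamts9* was not called and ranged from 1.84 to 11.3 RPM in reaggregates and from 0.798 to 6.09 RPM in the flat cultures. *Adamts8*, next to *Adamts15* on chromosome 9, and *Adamts20* did not exceed 3 reads in any library.

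The procollagen N-proteinases, which remove the amino-terminal propeptides of fibrillar procollagens, are *Adamts2*, *Adamts3* and *Adamts14*. *Adamts2* had 29.3 to 44.8 RPM in reaggregates with a median of 35.8 RPM, and 14.6, 1.19, 38.7 and 1.21 RPM in the flat cultures. Flat culture 3 was within the range of reaggregates, flat culture 1 below it and the de Bruijn cultures close to 1 RPM. The log2 fold change was 2.50 (SE 0.767 and adjusted p = 0.0310, limma). This call ended when flat culture 2 or 4, or any of reaggregates 1 to 4, was left out, with fold changes of 1.86 to 2.52, and against flat cultures 1 and 3 alone the fold change was 0.58.

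*Adamts14* measured 17.6, 19.3, 33.2, 33.4, 8.24 and 5.95 RPM in reaggregates 1 to 6, against 4.60, 8.83, 15.3 and 16.0 RPM in the flat cultures. The groups overlapped widely and the log2 fold change of 0.68 (SE 0.511 and adjusted p = 0.324, limma) was not called. *Adamts3* stayed below 1 RPM in every library.

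*Adamts7* and *Adamts12*, which cleave cartilage oligomeric matrix protein, both rose. *Adamts12* had 101, 109, 124, 125, 85.9 and 72.6 RPM in reaggregates 1 to 6, against 19.8, 2.62, 35.6 and 5.47 RPM in the flat cultures. No flat culture reached the reaggregates, and flat cultures 2 and 4 were the lowest. *Adamts12* rose by a log2 fold change of 3.23 (SE 0.555 and adjusted p = 0.00222, limma) and was the largest of the ADAMTS genes tested. *Adamts7* had 28.1, 37.4, 49.5, 47.5, 16.7 and 18.3 RPM in reaggregates, against 4.26, 2.03, 16.6 and 3.16 RPM in the flat cultures, with reaggregates 5 and 6 only just above flat culture 3. Its log2 fold change was 2.55 (SE 0.501 and adjusted p = 0.00433, limma), and 122 of its exonic bases lie opposite those of *Tbc1d2b*, at 168 RPM in reaggregates and 122 RPM in the flat cultures.

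*Adamts10* and *Adamts6* are close relatives that act on fibrillin microfibrils, and they moved in opposite directions. *Adamts10* measured 120, 131, 106, 94.0, 38.9 and 28.9 RPM in reaggregates 1 to 6, against 20.3, 9.07, 62.2 and 16.2 RPM in the flat cultures. Reaggregates 5 and 6 were below flat culture 3, so that the groups overlapped. The log2 fold change was 1.82 (SE 0.548 and adjusted p = 0.0288, limma), and the call ended without flat culture 1, 2 or 4 and without any of reaggregates 1 to 4, at 1.43 to 1.81. *Adamts6* lay between 40.4 and 52.0 RPM in reaggregates with a median of 48.9 RPM, and at 111, 115, 60.8 and 210 RPM in the flat cultures. All flat cultures were higher, flat culture 4 by the most and flat culture 3 by the least. *Adamts6* fell by a log2 fold change of −1.27 (SE 0.267 and adjusted p = 0.00585, limma), and without flat culture 4 the fold change of −0.98 was short of the threshold.

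The TIMPs did not move as a family. *Timp1* (ENSMUSG00000001131, chrX:20447292-20451861), a soluble inhibitor that is weak against membrane-type MMPs, measured 86.7, 76.0, 69.1, 75.4, 135 and 138 RPM in reaggregates 1 to 6, against 328, 345, 204 and 460 RPM in the flat cultures. Every flat culture was above every reaggregate, with flat culture 3 the nearest to them and reaggregates 5 and 6 the highest of their group. *Timp1* fell by a log2 fold change of −1.78 (SE 0.265 and adjusted p = 0.000980, limma). *Timp3* measured 866, 797, 344, 351, 983 and 998 RPM in reaggregates, against 1190, 403, 1300 and 281 RPM in the flat cultures. High and low libraries occurred in both groups, in that reaggregates 3 and 4 and flat cultures 2 and 4 were low and all others were high. The log2 fold change was 0.03 (SE 0.490 and adjusted p = 0.972, limma), and its sign depended on which libraries were included. *Timp3* lies within *Syn3*, whose exons on the other strand overlap it over 1733 bases and which was at 65.9 RPM in both groups. *Timp4* exceeded 3 reads in 1 library only.

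Per kilobase of exon, which allows genes to be compared, *Timp2* had the highest level in reaggregates at 982 ± 21.1 RPM per kb (SD, n = 6), followed by *Mmp14* at 760 ± 36.3 and *Mmp2* at 750 ± 26.9 RPM per kb, which did not differ beyond their spread. *Timp1*, *Mmp11* and *Timp3* came next, at 109 ± 35.3, 98.8 ± 37.2 and 88.8 ± 36.9 RPM per kb, again within each other's spread. In flat cultures *Timp2* at 458 ± 185 RPM per kb (SD, n = 4) and *Timp1* at 376 ± 118 RPM per kb led, without a difference beyond their spread, and *Mmp2* at 104 ± 48.4, *Mmp14* at 99.5 ± 47.7 and *Timp3* at 97.4 ± 64.5 RPM per kb followed. *Adamts1* was the highest ADAMTS gene in reaggregates at 57.5 ± 22.1 RPM per kb, whereas *Adamts6* had the highest mean in flat cultures at 24.7 ± 12.4 RPM per kb, within the spread of *Adamts1* at 13.7 ± 11.2 RPM per kb, which was the higher of them in flat culture 3.

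**Figure D2:**
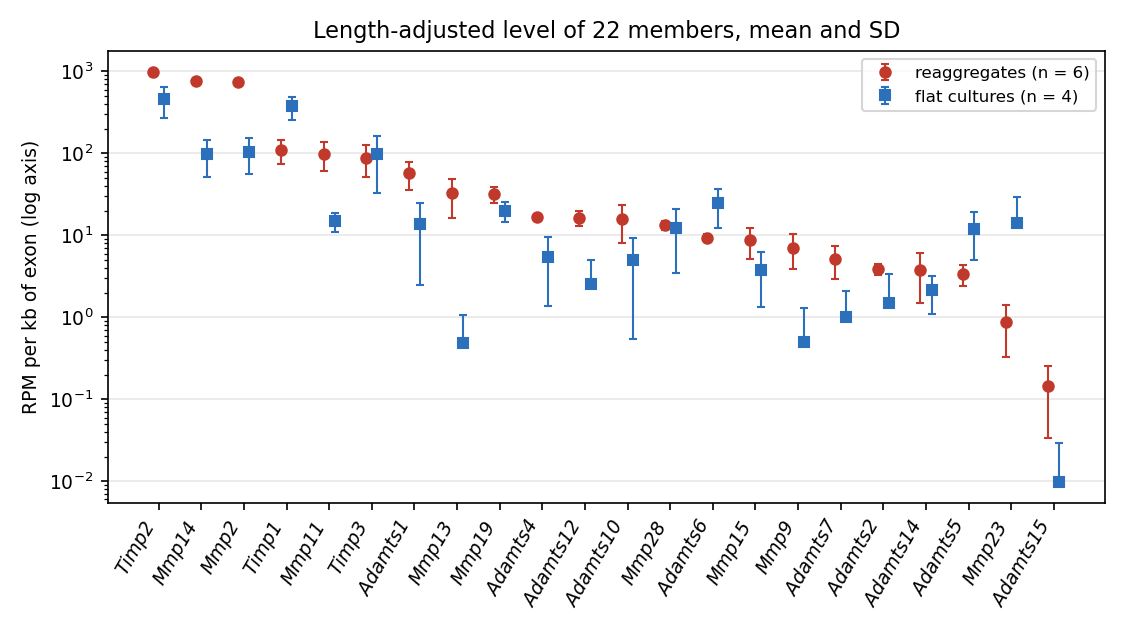
Mean level of 22 members in RPM per kb of exon on a log axis, with SD, for 6 reaggregates (circles) and 4 flat cultures (squares); a lower bar is left out where the SD is close to the mean or above it. *Timp2*, *Mmp14* and *Mmp2* are the highest in reaggregates, and *Timp1* stands at 376 RPM per kb in flat cultures against 109 in reaggregates.

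Summed over the family, MMP transcripts amounted to 1520.0 to 1789.7 RPM per kb in reaggregates and to 210, 278, 412 and 184 RPM per kb in flat cultures 1 to 4. TIMP transcripts amounted to 1103.3 to 1289.2 RPM per kb in reaggregates and to 782, 1143.9, 777 and 1022.7 RPM per kb in flat cultures. The MMP sum thus exceeded the TIMP sum in every reaggregate, with a ratio of 1.23 to 1.62, and was below it in every flat culture, with ratios of 0.269, 0.243, 0.530 and 0.180. That direction depends on the division by exon length, since in RPM the MMP sum was below the TIMP sum in reaggregates 5 (4846.8 against 5078.0) and 6 (4323.7 against 4886.0). These are sums of transcript levels and say nothing of active enzyme. *Mmp2* and *Mmp14* made up 86.0% to 92.4% of the MMP sum in reaggregates and 60.7% to 81.7% in flat cultures. The ADAMTS sum was smaller, at 120 to 143 RPM per kb in reaggregates and 49.1, 61.1, 90.0 and 74.0 RPM per kb in flat cultures.

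Many members were at or near 0 in these cells. *Mmp1b*, *Mmp8*, *Mmp20* and *Mmp27* were listed at 0 in every library, and *Mmp10*, *Mmp21*, *Mmp25*, *Adamts8*, *Adamts18* and *Adamts20* were at or below 3 reads in every library. *Mmp3* was at about 3 reads in reaggregates 1 and 2 and at 0 elsewhere, and *Mmp17* exceeded 3 reads in 1 library, neither reaching 0.5 RPM, so that 12 members in all were not tested. The 9 members that were tested without being described gene by gene under the naming rule, *Adamts3*, *Adamts9*, *Adamts13*, *Adamts16*, *Adamts17*, *Adamts19*, *Mmp16*, *Mmp24* and *Timp4*, had means below 10 RPM in both groups and none was called. *Adamts16*, singled out after its values were seen, reached 4.14 and 5.12 RPM in reaggregates 3 and 4 and stayed below 1 RPM in all other libraries.

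*Mmp13* lies at one end of a cluster of MMP genes on chromosome 9, where the members span chr9:7272514-7674968 on NCBI37. Its neighbours *Mmp1b*, *Mmp3*, *Mmp10*, *Mmp8*, *Mmp27* and *Mmp20* had at most 0.386 RPM in any library, while *Mmp13* had 87.0 RPM on average in reaggregates. *Mmp12*, which shares 157 exonic bases with *Mmp1b* on the opposite strand, has no values here. *Adamts1* and *Adamts5*, adjacent and on the same strand of chromosome 16 at 85794072-85803358 and 85858415-85901370, changed in opposite directions.

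**Figure D3:**
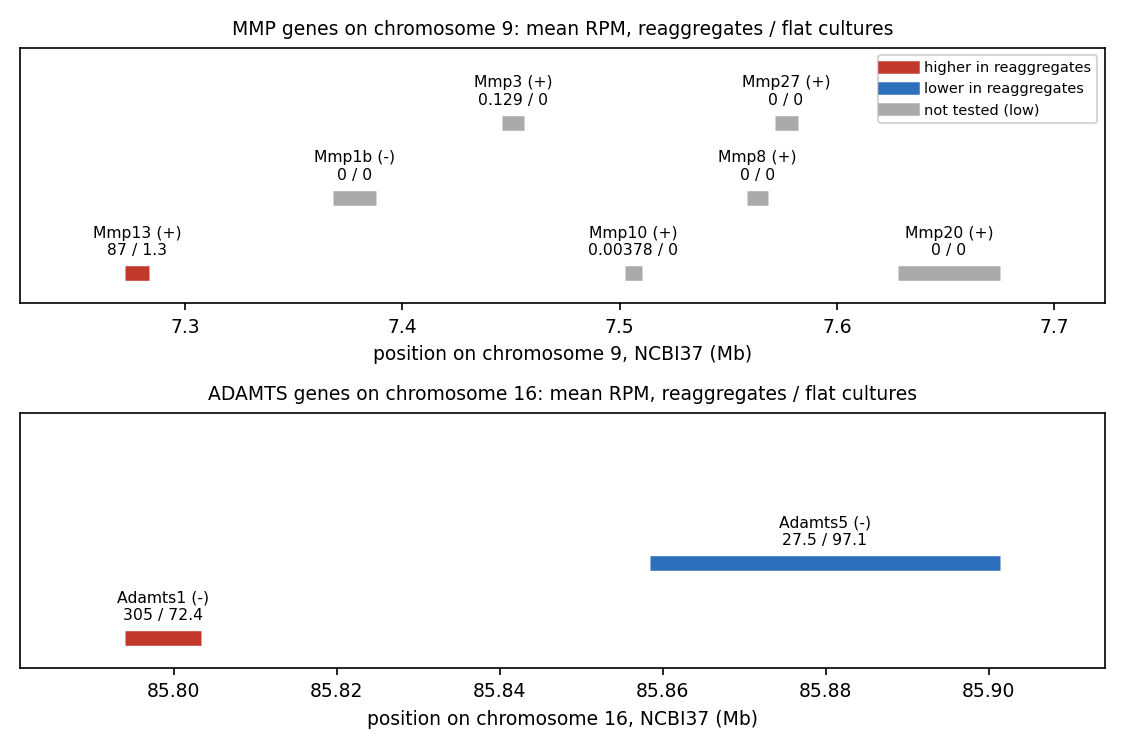
Members that lie side by side on chromosomes 9 and 16 (NCBI37), drawn to scale in Mb with strand and with mean RPM in 6 reaggregates and 4 flat cultures; red is higher in reaggregates, blue lower and grey too low to be tested, and the height of a bar on the panel has no meaning. Of the 7 MMP genes drawn on chromosome 9 only *Mmp13* was high enough to be tested, at 87.0 and 1.30 RPM, and on chromosome 16 *Adamts1* had 305 and 72.4 RPM and *Adamts5* 27.5 and 97.1 RPM.

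Promoter sequences, 250 bases before the RefSeq start on GRCm38.p6, were found for 29 members as 30 promoters, and were searched on both strands for 3 elements. The AP-1 element was spelled TGANTCA. The TATA box was spelled TATAAA. The RUNX element was spelled TGTGGT. The AP-1 element was in 6.75% of all 32851 promoters, the TATA box in 12.4% and the RUNX element in 14.0%. Among the members, the AP-1 element occurred in 5 promoters, those of *Mmp13*, *Mmp1b*, *Mmp3*, *Mmp10* and *Mmp20*, and each of these also held a TATA box. All 5 genes belong to the cluster on chromosome 9. The TATA box occurred in 7 of the 30 member promoters and the RUNX element in 5. Promoters were found for only 7 of the 13 up-regulated members, and 1 of these 7, *Mmp13*, held the AP-1 element. The promoter of *Mmp13* held all 3 elements, as did 0.195% of all promoters, but so did that of *Mmp1b*, which was listed at 0 in every library. A match describes letters in the sequence and is neither a site of binding nor a cause. The sequences of 4 promoters of the cluster are given because an AP-1 element and a TATA box occur both in an up-regulated gene and in neighbours at or near 0, with that of *Mmp14* as an up-regulated gene with neither an AP-1 element nor a TATA box; capitals mark the elements, and ACCACA is the RUNX element on the other strand. They lie at chr9:7272264-7272513 (plus strand), chr9:7388027-7388276 (minus strand), chr9:7445572-7445821 (plus strand), chr9:7502092-7502341 (plus strand) and chr14:54431348-54431597 (plus strand).
Mmp13: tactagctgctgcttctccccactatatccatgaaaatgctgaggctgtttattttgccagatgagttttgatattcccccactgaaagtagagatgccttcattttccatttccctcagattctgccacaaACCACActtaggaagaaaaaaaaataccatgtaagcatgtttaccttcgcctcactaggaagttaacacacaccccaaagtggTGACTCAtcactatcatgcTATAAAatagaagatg
Mmp1b: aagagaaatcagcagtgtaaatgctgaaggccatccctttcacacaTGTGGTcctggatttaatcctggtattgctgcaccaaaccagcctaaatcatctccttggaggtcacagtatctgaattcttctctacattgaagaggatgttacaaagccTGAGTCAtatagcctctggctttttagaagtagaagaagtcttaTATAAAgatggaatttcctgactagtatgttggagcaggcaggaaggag
Mmp3: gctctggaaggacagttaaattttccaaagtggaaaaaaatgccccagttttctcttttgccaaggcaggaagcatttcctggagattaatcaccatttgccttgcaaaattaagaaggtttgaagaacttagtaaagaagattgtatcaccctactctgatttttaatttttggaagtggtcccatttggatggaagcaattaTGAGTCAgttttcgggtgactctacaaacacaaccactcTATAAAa
Mmp10: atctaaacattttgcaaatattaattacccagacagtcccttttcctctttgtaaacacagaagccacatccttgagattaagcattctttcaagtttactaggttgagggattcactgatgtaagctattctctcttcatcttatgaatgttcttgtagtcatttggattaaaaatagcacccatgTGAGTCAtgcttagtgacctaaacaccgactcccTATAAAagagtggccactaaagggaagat
Mmp14: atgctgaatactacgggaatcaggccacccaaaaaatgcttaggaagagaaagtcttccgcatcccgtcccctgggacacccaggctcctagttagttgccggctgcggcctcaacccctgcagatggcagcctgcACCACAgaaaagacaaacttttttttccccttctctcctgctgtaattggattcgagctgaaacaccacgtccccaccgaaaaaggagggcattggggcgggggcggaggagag
In *Mmp13* the AP-1 element ends 29 bases before the annotated start and the TATA box 11 bases before it. In *Mmp10* these elements end 57 and 24 bases before the start.

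IL-3 was examined within the reaggregates. No member was called between 3 reaggregates with and 3 without IL-3, and 0% of all genes tested were (limma); 0 of the 31 members and 68 of all genes had an unadjusted p under 0.05. With consecutively numbered reaggregates as a block, again 0 members and 0 genes were called, and 0 members and 565 genes had an unadjusted p under 0.05. Consecutively numbered reaggregates, each comprising 1 culture with and 1 without IL-3, gave close values for most members. Over the 22 members described, the median absolute difference on the log2 scale was 0.13 within these pairs and 0.77 between the means of different pairs, and it was larger between pairs for 19 of the 22. *Mmp2*, *Mmp14* and *Timp2* were exceptions, with 0.06, 0.09 and 0.04 within pairs and 0.02, 0.05 and 0.02 between them.

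Reaggregates 5 and 6 had the lowest mean of the pairs for 10 of the 13 up-regulated members, among them *Mmp9*, *Mmp11*, *Mmp13*, *Adamts7* and *Adamts10*. *Adamts1* was highest there. No such count was made over all genes, so that it may not be particular to the members. With the consecutive reaggregates averaged, as 3 samples against 4, 5 members were up-regulated (1.84% of all genes) and 1 was down-regulated (2.53% of all genes). These were *Mmp2*, *Mmp9*, *Mmp11*, *Mmp13*, *Mmp14* and *Timp1*, and the same 6 members were called in the same direction under each of the 23 alternatives that were run.

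The flat cultures also differed among themselves. Between the 2 de Bruijn cultures and the 2 with no group labelled, 6 members were called, where 5.70% of all genes tested were (limma). *Mmp23* was higher in de Bruijn cells by a log2 difference of 4.19 (adjusted p = 0.00946), and *Adamts2*, *Adamts12*, *Mmp28* and *Timp3* were lower, with log2 differences of −3.84, −2.65, −1.87 and −1.88 (adjusted p between 0.0224 and 0.0488). *Adamts13*, the protease of von Willebrand factor, which was named after its values were seen, was also lower, at 0.806 and 0.958 RPM in the flat cultures 1 and 3 and 0 in flat cultures 2 and 4. Leaving out any flat culture left 0 members and 0 genes called. The comparison is of 2 against 2 cultures, the authors put variation by cell source on a level with that by passage, and passage numbers were not labelled, so that source and passage cannot be told apart. Reaggregates compared with flat cultures 1 and 3 alone gave 8 members up-regulated (3.70% of all genes) and 1 down-regulated (6.16% of all genes), the calls of *Adamts1*, *Adamts2*, *Adamts5*, *Adamts6*, *Adamts7*, *Adamts10*, *Adamts15* and *Mmp23* being lost, and with the de Bruijn cultures alone 13 (15.2% of all genes) and 4 (10.5% of all genes). Against the de Bruijn cultures *Mmp28* was called and *Timp2* was not. These comparisons share the reaggregates.

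Flat culture 3 had the highest value of the flat cultures for 11 of the 13 up-regulated members. It had the lowest for 2 of the 4 down-regulated members, *Timp1* and *Adamts6*. How often this held over all genes was not counted. For 7 of the 13, flat cultures 1 and 3 were both above both de Bruijn cultures. These were *Adamts2*, *Adamts4*, *Adamts7*, *Adamts10*, *Adamts12*, *Mmp9* and *Mmp13*. Without it 14 members were up-regulated, the 13 above and *Mmp15*, and 4 were down-regulated, while the shares of all genes rose to 12.5% and 8.99%. Flat culture 3 was also the highest of the flat cultures for immediate early and stress genes. Of 10 such genes 10 were tested and 6 were up-regulated in reaggregates (*Fos*, *Fosb*, *Jun*, *Atf3*, *Hspa1a* and *Hspa1b*), of which only *Atf3* remained called with consecutive reaggregates averaged. *Egr1* was the most abundant, and none was at 0. Their summed RPM was 2466.1, 2233.8, 2110.4, 2302.6, 2567.0 and 2023.6 in reaggregates 1 to 6 and 479, 798, 2912.2 and 860 in flat cultures 1 to 4. In this sum flat culture 3 lay above all reaggregates and the other flat cultures lay below them. *Atf3*, however, was at 31.5 RPM in flat culture 3 and at 65.9 to 98.9 RPM in reaggregates. *Fos* and *Fosb* measured 436 and 284 RPM in flat culture 3, and 19.1 and 2.76, 79.8 and 19.6, and 16.9 and 12.4 RPM in the flat cultures 1, 2 and 4. *Mmp13* at 3.59 RPM and *Mmp9* at 5.99 RPM in flat culture 3 remained below every reaggregate. The part of the immediate early response, or of the dissociation that reaggregates underwent before RNA extraction, in the levels of the members was not tested.

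All 7 proliferation markers were lower in reaggregates. The most abundant was *Top2a*, none was at 0, and their summed RPM was 260, 256, 231, 258, 266 and 309 in reaggregates 1 to 6 and 1410.9, 517, 1226.5 and 640 in flat cultures 1 to 4. With consecutive reaggregates averaged 3 of the 7 remained called. Flat cultures 1 and 3, the cultures with no group labelled, thus had the highest sums of the flat cultures. The part of proliferation in these results was not tested. Of the 6 osteoblast markers none was called, with *Spp1* the most abundant. Of the 5 chondrocyte markers *Sox9* was higher and *Col2a1* lower in reaggregates, and *Acan*, which encodes aggrecan, was listed at 0 in every library. *Col2a1* was the most abundant, and the summed RPM of the list was 499, 480, 403, 412, 482 and 430 in reaggregates 1 to 6 against 836, 1045.7, 1627.4 and 1133.5 for flat cultures 1 to 4, with its part in the results not tested. Of 7 blood and macrophage markers 4 were tested and none was called, with *Lyz2*, given above, the most abundant.

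Substrates that ADAMTS proteases process include fibrillar procollagens and large proteoglycans. Of 13 genes listed for this processing, among them *Vwf* and *Ccbe1*, which encodes a cofactor and not a substrate, 11 were tested. Up-regulated were 7, namely *Col1a1*, *Col1a2*, *Col3a1*, *Col5a1*, *Col5a2*, *Vwf* and *Ccbe1*, and 1, *Col2a1*, was down-regulated, where 7.32% and 6.53% of all genes were. With consecutive reaggregates averaged only *Col5a2* remained up-regulated and *Col2a1* down-regulated. *Col1a2* lay between 7610 and 11300 RPM in reaggregates and at 3310, 2070, 6340 and 1190 RPM in the flat cultures (log2 fold change 1.83, limma adjusted p = 0.00787), and was not called against flat cultures 1 and 3 alone (1.05). *Col3a1*, a substrate of the procollagen N-proteinases, lay between 1850 and 3200 RPM in reaggregates and at 345, 38.8, 960 and 31.5 RPM in the flat cultures (log2 fold change 4.11, adjusted p = 0.00439), with fold changes of 2.10 against flat cultures 1 and 3 and 6.12 against the de Bruijn cultures. For both genes flat culture 3 was the highest and flat culture 4 the lowest of the flat cultures, as for *Mmp2* and *Mmp14*. *Vcan*, which encodes versican, was among the 3 that were tested and not called.

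In 7 lists of other proteases and regulators 34 genes were tested, of which 2 were up-regulated and 2 down-regulated, shares close to the 7.32% and 6.53% of all genes. With consecutive reaggregates averaged neither *Bmp1* nor *Ctsb* was called, and *Adam8* and *Plaur* remained down-regulated. Of 5 Tolloid proteases and enhancers 4 were tested, and *Bmp1*, the procollagen C-proteinase, rose from 67.3, 205, 209 and 148 RPM in the flat cultures to between 242 and 617 RPM in reaggregates (log2 fold change 1.60, limma adjusted p = 0.0100). Of 4 matrix-degrading cathepsins 3 were tested, and *Ctsb* rose from 1410, 1120, 1130 and 687 RPM to between 2120 and 3520 RPM (log2 fold change 1.37, adjusted p = 0.00286). All reaggregates were above all flat cultures for *Bmp1* and *Ctsb*. Of 8 genes of plasminogen activation 6 were tested, and *Plaur*, the urokinase receptor, fell from 58.9, 64.9, 70.2 and 69.7 RPM to between 20.8 and 30.3 RPM (log2 fold change −1.35, adjusted p = 0.000127), without overlap. *Plg*, which encodes plasminogen, did not exceed 3 reads in any library.

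Of 10 ADAM sheddases 8 were tested, and *Adam8* fell from 24.5, 25.6, 22.4 and 19.1 RPM to between 3.05 and 9.88 RPM (log2 fold change −1.77, limma adjusted p = 0.00332), again without overlap. None of the 4 proprotein convertases was called against all flat cultures, and *Furin*, the most abundant, lay between 73.6 and 116 RPM in reaggregates and at 31.6, 73.0, 70.1 and 54.4 RPM in the flat cultures, so that all reaggregates were above all flat cultures at a log2 fold change of 0.84 (adjusted p = 0.0219), below the threshold of fold change. Against flat cultures 1 and 3 alone *Furin* was called higher (1.04) and *Pcsk5* lower (−1.15), and against the de Bruijn cultures alone *Pcsk6* was called lower (−5.00), the *Pcsk* genes being named after their values were seen. Of 6 ADAMTS-like proteins, which lack the protease domain, 4 were tested and none was called against all flat cultures, with *Adamtsl4* at 42.5 to 56.5 RPM in reaggregates and 61.1, 81.5, 123 and 54.2 RPM in the flat cultures. *Adamtsl3*, named after its values were seen, was called higher against the de Bruijn cultures alone (2.58). Against flat cultures 1 and 3 alone its fold change of −2.10 was not called. Of 9 other inhibitors and clearance receptors 8 were matched and 5 tested, and none was called against all flat cultures. *Lrp1*, which clears TIMPs and MMPs from the cell surface, lay between 994 and 2120 RPM in reaggregates and at 371, 1750, 910 and 724 RPM in the flat cultures, where flat culture 2 was inside the range of reaggregates, and it was called higher against flat cultures 1 and 3 alone (1.39).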

How the data were processed

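Reads had been aligned by the authors with TopHat 1.2.0 (NCBI37/mm9), counted per Ensembl gene with reads of several origins divided among genes, and given as RPM. Deposited columns with the authors' log2 fold change and adjusted p-value for reaggregates against flat cultures, computed with DESeq, were not used. No library column was left unmatched (0). The commonest RPM above 0 was taken as 1 read; because only 56.5% to 61.8% of values between 0 and 10 RPM were whole multiples of it (within 0.02 reads or 0.5% of the multiple, whichever is larger), no count test was run.

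Members, pathway lists and marker lists were chosen with earlier results of these data known. Values were compared as log2(RPM + 0.5) in the 16935 genes that reached 0.5 RPM in any library. The test was limma 3.58.1 under R 4.3.3 (linear model, empirical Bayes with a mean-variance trend), and the p-values were adjusted over all genes. The scripts were tested on simulated data. Members called between the conditions, or with a mean of at least 10 RPM in either, are described singly, and others by counts or range; of each pathway list at most 4 genes have values, those called with the highest mean RPM or else 1 or 2 with the highest mean RPM. Exon lengths and coordinates came from GENCODE vM1 on NCBI37, which matched 25693 of 26888 gene identifiers and all 43 members, and promoters from RefSeq. Alternatives were pseudocounts of 0.1 and 1, no filter, a mean of at least 1 RPM, quantile and median-ratio scaling, no trend, each library left out, reaggregates averaged in consecutive pairs or split by IL-3, flat cultures of 1 source, and a replicate block. *Tfpi2*, *S100a9*, *Ocstamp* and *Dcstamp* were not analysed here. Figures were drawn with matplotlib 3.10.9.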

Additional observations from a re-analysis of the deposited data

Results flagged for a closer look

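In flat cultures, 6 members differed between cells of the de Bruijn group and cells with no group labelled, so that the difference between reaggregates and flat cultures depended on the flat cultures used; the log2 differences, which limma tested directly, were −3.84 for *Adamts2*, −2.65 for *Adamts12*, −1.46 for *Adamts13*, 4.19 for *Mmp23*, −1.87 for *Mmp28* and −1.88 for *Timp3*. No label gives the source of the reaggregates. *Adamts15* stood apart in flat culture 1, at 0.230 RPM against 0 in the other flat cultures, a value below 3 reads. It was the only such case in 44 groups of values from the 22 members described, and chance gives about 1 in 20 groups.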

How the results depend on the processing

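Over the 22 members described and up to 23 alternatives each, 419 fold changes kept their direction and side of the threshold, 73 kept their direction but were no longer called, 4 became called and 9 changed sign. The number of members up-regulated was 13 (7.32% of all genes), and 5 (1.84%) with consecutive reaggregates averaged, 8 (3.70%) against flat cultures with no group labelled, 5 (1.64%) with only the reaggregates given IL-3 and 7 (2.04%) with only those without it. Of the 4 members down-regulated (6.53%), 1 remained under each of these settings (2.53%, 6.16%, 2.13% and 2.80%). With each library left out in turn, 10 to 14 members (4.52% to 12.5% of all genes) were up-regulated and 2 to 4 (4.81% to 8.99%) down-regulated, the 2 being without flat culture 4. The shares of all genes moved with these settings as well. Fewer samples entered these fits. Between de Bruijn flat cultures and those with no group labelled 6 members were called (5.70% of all genes), 5 (6.05%) with median-ratio scaling, 4 (5.43% and 5.22%) with a pseudocount of 0.1 or of 1, *Timp3* being lost in each, 1 (1.06%) without the filter on low values, which lets more genes be tested, and 0 (0%) with any flat culture left out; here the lone culture on one side is assumed to vary like those on the other. Between the same flat cultures 6 members (8.47% of all genes) were called with quantile normalization. With a mean of at least 1 RPM 6 (10.7%) were called, *Mmp9* being gained and *Adamts13* no longer among them. The fold change of *Mmp28* was −0.53 against flat cultures with no group labelled, and that of *Timp3* was −0.92 there, −0.27 with the replicate block and between −0.37 and 0.36 with libraries left out, and the cause was not tested. With replicate numbers 1 to 4 as a block, 15 members (11.1% of all genes) were up-regulated, *Adamts14* and *Adamts16* being added, and 4 (6.81%) down-regulated, with *Mmp16* in place of *Mmp23*; same-numbered libraries had correlations of −0.0408, −0.213, 0.0722 and 0.155, and the numbers do not pair the cultures. For members near 3 reads, such as *Adamts15*, depth limits any difference, and *Adamts15* could not be fitted under a mean of at least 1 RPM.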
